A study of Canis lupus familiaris with 6 samples.

Results

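The ZNF genes of a canine keratinocyte line are described here, set beside other genes of like expression. They were chosen by symbol (ZNF and a number, with at most 1 letter after it), by the protein-coding label and by a read count of at least 50 in each of the 6 libraries. Of 268 ZNF genes in the gene table, 216 met this rule, out of 35993 genes in all. CPEK cells, a line of canine epidermal keratinocytes with the wild-type genotype, were exposed for 30 s either to cold atmospheric microwave plasma (CAMP, given directly to the cells and called dCAMP) or to the gas without plasma as the control. Both groups had the same 15 min wait, the same change of medium and the same 24 h of culture before total RNA was taken, and each group holds 3 libraries. CPEK is a single cell line, and the study's general statement on independent experiments is not tied to the RNA-Seq libraries, so separate cultures are not established for the 3 libraries of a group, and the p-values measure only the spread between these libraries. The study asked which genes respond to the plasma in the setting of wound repair. Its RNA-Seq methods mention no scratch of the cells, and its wound lesions are described for other experiments.

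ZNF genes encode proteins with zinc fingers, short folds held together by a zinc ion that most often read DNA. The largest class carries a KRAB domain, which brings in TRIM28 and, through it, enzymes that methylate histone H3 and shut down nearby DNA, including transposable elements. Other ZNF proteins activate promoters, bind RNA, mature ribosomes or attach ubiquitin or SUMO, and many ZNF genes lie side by side in runs on the chromosome.

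The gene counts summed to 43084921 to 54082634 per library, of which the 216 ZNF genes took 0.41 to 0.459%. All 12 keratinocyte markers reached 1 FPKM (fragments scaled to transcript length and to mapped reads) in every library, with a summed level of 22600 to 28700 FPKM in gas and 21400 to 22600 FPKM in dCAMP. None of 8 fibroblast, 6 melanocyte and 6 immune markers did, with summed levels of at most 1.56, 2.55 and 1.9 FPKM, and 3, 2 and 2 of them were at 0 in every library. Of 4 endothelial markers 1 did, 1 was at 0 in every library, and their summed level was 2 to 2.39 FPKM in gas and 2.53 to 3.13 FPKM in dCAMP. Before any result, it has to be said that the gas libraries stood apart from one another. Replicate counts were compared by chi-square, where a ratio of chi-square to its degrees of freedom close to 1 means sampling noise only. That ratio was 85.32 to 317.14 for pairs of gas libraries, against 6.5 to 10.14 for pairs of dCAMP libraries. Values without 1 gas library are therefore given for the genes described below where they differ most.

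At the level of the whole group, the ZNF genes showed no common direction between dCAMP and gas. The median log2 fold change of dCAMP over gas was 0.007, with quartiles of -0.26 and 0.44, and 109 of 216 genes had a positive value. For 7064 other protein-coding genes of like expression (50 or more counts in every library, and a mean log2 CPM between 1.22 and 5.98, the range of the middle of the ZNF genes, although the median log2 CPM was 4.52 in them and 3.74 in the ZNF genes) the median was 0.036, and for all 14708 genes tested it was 0.027. CPM denotes counts scaled to the TMM-normalized library size. The sign of the ZNF median depended on the scaling, since it was -0.083 with upper-quartile factors and -0.11 after removal of the trend with gene length. The median over all genes tested also turned negative, to -0.06 and -0.036 in the same order. The values of single genes ran from -0.71 (ZNF580) to 1.09 (ZNF770).

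No ZNF gene passed an adjusted p of 0.05 in the quasi-likelihood test of edgeR (Benjamini-Hochberg adjusted), and neither did any of the 14708 genes tested (0%). The adjusted p of the 216 genes lay between 0.221 and 0.984. At an unadjusted p under 0.05, 12 ZNF genes (5.56%) were higher in dCAMP, beside 6.81% of all genes tested and 7.64% of the genes of like expression. In the other direction 35 ZNF genes (16.2%) were lower in dCAMP, beside 13.9% of all genes tested and 13.7% of the genes of like expression. In limma's test of log2(FPKM + 1), the counts were 21 higher and 22 lower, beside 11.9 and 11.8% of all genes tested. None of the ZNF genes (0) combined a 2-fold change with such an unadjusted p, beside 1.09% of all genes tested. The Wald test of DESeq2, run over all genes with a count, called 5 ZNF genes at an adjusted p under 0.05, beside 1.48% of all its genes, of which ZNF185 was higher and ZNF580, ZNF837, ZNF202 and ZNF48 were lower in dCAMP. Under limma's voom with sample quality weights, 146 ZNF genes were called, and the same fit called 60.8% of all genes tested.

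All 3 dCAMP libraries lay above all 3 gas libraries for 44 ZNF genes (20.4%), beside 19% of all genes tested. They lay below all gas libraries for 49 ZNF genes (22.7%), beside 20.9%. The calls turned on gas 3. Without it, the quasi-likelihood test called 85 ZNF genes at an adjusted p under 0.05, with 40 higher and 45 lower in dCAMP. The same fit called 15% of all its genes as higher and 18.1% as lower. The gas libraries that remain in it are those that lay farther from dCAMP, as given below. Leaving out gas 1 gave 0 calls with 13 ZNF genes higher and 23 lower at an unadjusted p under 0.05, beside 8.75 and 11.8% of all genes tested. Leaving out gas 2 gave 0 calls with 5 higher and 13 lower, beside 2.43 and 5.82%.

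**Figure D1:**
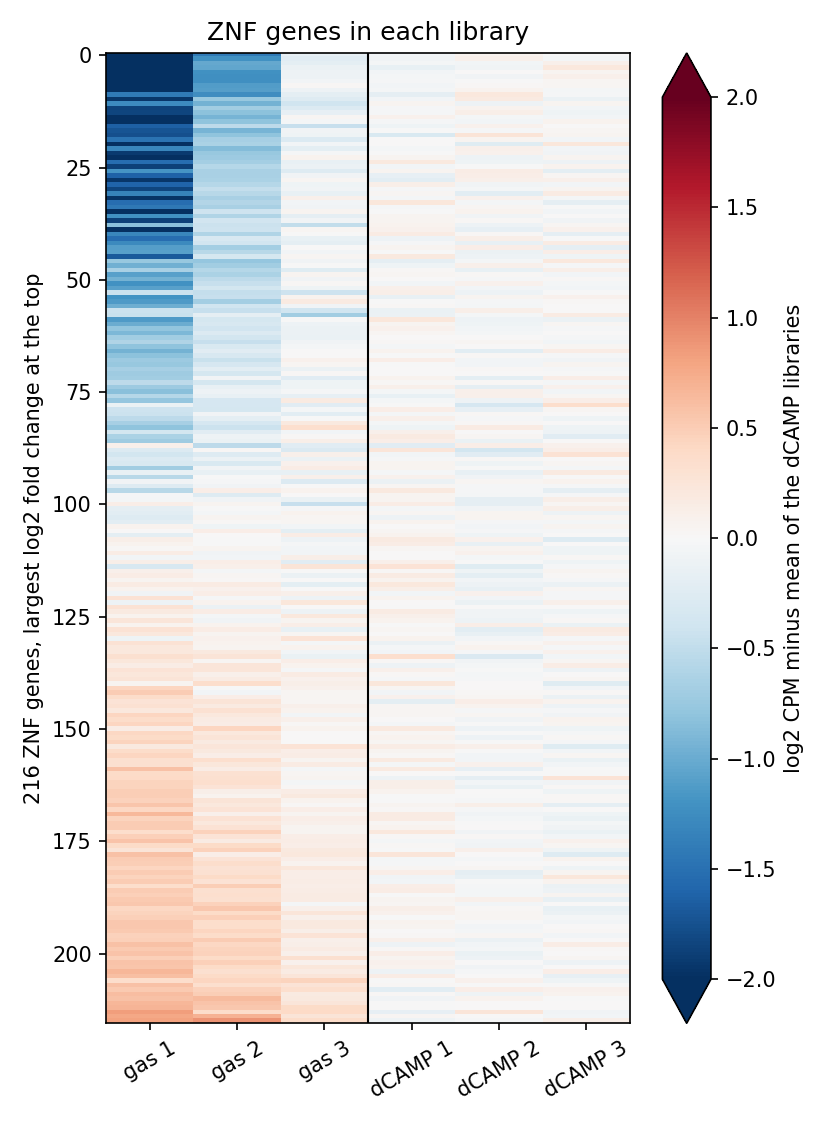
Each row is 1 of the 216 ZNF genes, ordered by the log2 fold change of dCAMP over gas with the largest positive value at the top, and each column is 1 library. The colour is the log2 CPM minus the mean log2 CPM of the 3 dCAMP libraries, cut off at -2 and 2; gas 1 is dark blue at the top and red at the bottom, gas 2 is paler in the same places, and gas 3 and the dCAMP libraries mostly stay near 0.

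The heatmap of the ZNF genes in each library shows where the spread lay. Relative to the mean of the dCAMP libraries, the log2 CPM of the ZNF genes had medians of -0.034 (gas 1), -0.012 (gas 2) and 0.025 (gas 3), so that the middle of the group hardly moved in any of them. The width differed. The interquartile range of these log2 ratios was 1.37 for gas 1, 0.67 for gas 2 and 0.21 for gas 3, and over the genes of like expression it was 1.27, 0.61 and 0.23.

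In gas 1, 51 ZNF genes (23.6%) lay below the dCAMP mean by a log2 value of 1 or more, in gas 2 there were 10 (4.63%) and in gas 3 there were 0. The shares of the genes of like expression were 22.6, 5.28 and 0.198% in the same order. Within a log2 value of 0.25 of the dCAMP mean were 191 ZNF genes (88.4%) in gas 3 and 41 (19%) in gas 1, beside 83.2 and 23.1% of the genes of like expression. The median SD of log2 CPM was 0.23 between the gas libraries and 0.087 between the dCAMP libraries (n = 3 each), and the gas SD was the larger one for 188 of 216 genes (87%, beside 85.8% of the genes of like expression).

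**Figure D2:**
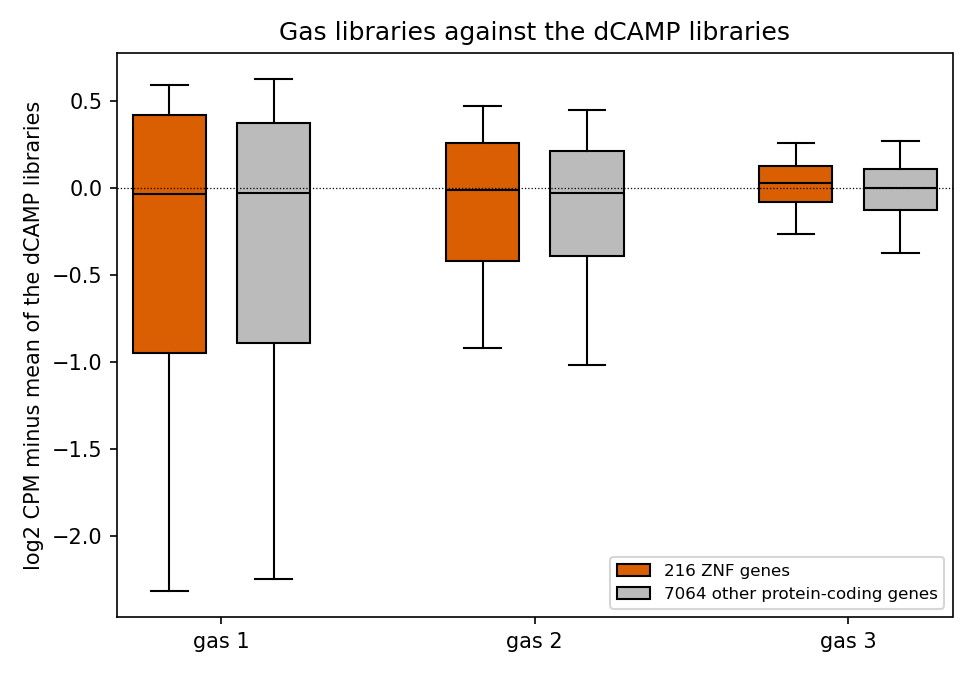
Boxes give the quartiles and the median of the log2 CPM minus the mean of the dCAMP libraries for each gas library, with whiskers at the 5th and 95th percentiles, for the 216 ZNF genes and for 7064 other protein-coding genes of like expression. The medians all lie near 0 and the 2 sets have boxes of similar width in each library, from 1.37 and 1.27 in gas 1 down to 0.21 and 0.23 in gas 3.

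Gas 1 was the lowest gas library for 104 ZNF genes (48.1%), gas 3 for 90 (41.7%) and gas 2 for 22 (10.2%). The corresponding shares of the genes of like expression were 46.2, 43.7 and 10.1%. Gas 2 lay between the other 2 gas libraries for 164 ZNF genes (75.9%), beside 78.7% of the genes of like expression. No test was made of these differences. Among the ZNF genes with the lowest expression the shares were further apart, as given with the split by expression.

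The minimum of 50 counts itself leaves out genes that were low in gas 1. Just inside it were ZNF485 and ZNF260, each with 50 counts in gas 1, and ZNF567 with 52. Just outside were ZNF583, with 47 counts in gas 1, and ZNF641, with 47 in dCAMP 1. Of the 52 ZNF genes outside the rule, 12 were at 0 in all libraries and 40 had some counts, among them 14 that were under 50 counts in gas 1 alone. ZNF197, named after its values were seen, had 41, 329 and 631 counts in gas 1, 2 and 3 and 615, 561 and 571 in the dCAMP libraries. With the 29 outside genes that could be tested, the median log2 fold change over 245 ZNF genes was 0.093 in place of 0.007. The counts and medians over the 216 genes therefore describe these genes only.

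The 8 largest positive log2 fold changes belonged to ZNF770, ZNF260, ZNF25, ZNF518A, ZNF277, ZNF644, ZNF654 and ZNF146, from 1.09 down to 0.93. None of them had an unadjusted p under 0.05, and in all 8 gas 1 was the lowest library. ZNF770 (gene ID 100687020; CanFam3.1 chromosome 30, 2673166 to 2682290) measured 4.88, 13.2 and 31.4 CPM in gas 1, 2 and 3 and 33.7, 36.7 and 34.8 CPM in the dCAMP libraries. The groups did not overlap, but gas 3 stood close to dCAMP and far from gas 1. The gas mean was 16.5 ± 13.5 CPM and the dCAMP mean 35.1 ± 1.53 CPM (SD, n = 3 each), with a log2 fold change of 1.09 (SE 0.60) and an adjusted p of 0.297 in edgeR's quasi-likelihood test. Without gas 3 the log2 fold change was 1.91 and the adjusted p was 0.026, and without gas 1 the log2 fold change was 0.64. Over the 8 genes, the log2 fold changes without gas 1 ran from 0.43 (ZNF146) to 0.64 (ZNF770).

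ZNF146, a protein made almost entirely of zinc fingers, had the widest gas values of the 8 in absolute terms. Its CPM was 7.48, 33.2 and 73.5 in gas 1, 2 and 3 and 69.6, 73.5 and 74.1 in dCAMP, so that gas 3 lay among the dCAMP libraries and the groups overlapped. The log2 fold change was 0.93 (SE 0.70), and without gas 1 it was 0.43. ZNF518A, whose gas 1 library lay lowest of all ZNF genes relative to dCAMP (log2 ratio -3.82), also overlapped, with 1.38, 9.78 and 18.6 CPM in gas and 18.2, 19.1 and 23.3 CPM in dCAMP.

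The other members of the 8 followed the same outline. ZNF277, a partner of the Polycomb protein BMI1, measured 10.1, 26.0 and 56.0 CPM in gas and 58.2, 60.4 and 62.6 CPM in dCAMP. ZNF644, which joins the histone H3 methyltransferases EHMT1 and EHMT2 in a complex, measured 4.93, 11.9 and 25.9 CPM in gas and 27.1, 26.6 and 29.8 CPM in dCAMP. ZNF260 measured 1.08, 3.44 and 6.88 CPM in gas and 7.64, 8.68 and 7.86 CPM in dCAMP. In these 3 genes, as in ZNF25 and ZNF654, the dCAMP libraries lay above all gas libraries, with gas 3 nearest to them.

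The 8 largest negative log2 fold changes were smaller in size and more evenly shared by the gas libraries. They belonged to ZNF580, ZNF579, ZNF581, ZNF837, ZNF593, ZNF444, ZNF385A and ZNF296, and ran from -0.71 to -0.43. In all 8 the dCAMP libraries lay below every gas library and the unadjusted p was under 0.05, while the adjusted p was 0.221 for 7 of them and 0.229 for ZNF581 in edgeR's quasi-likelihood test.

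ZNF580 (gene ID 100688358; chromosome 1, 102099958 to 102104062) measured 20.1, 21.2 and 14.8 CPM in gas and 10.7, 11.2 and 12.4 CPM in dCAMP. Gas 3 was again the gas library nearest to dCAMP, and it still lay above all dCAMP libraries. The means were 18.7 ± 3.44 CPM in gas and 11.4 ± 0.863 CPM in dCAMP (SD, n = 3 each), a log2 fold change of -0.71 (SE 0.16) with an unadjusted p of 0.00443 in the edgeR fit. Its adjusted p was 0.221 with edgeR's quasi-likelihood test, 0.0299 with DESeq2 over all counted genes and 0.0203 with edgeR without gas 3. The log2 fold change without gas 1 was -0.68, against -0.90 without gas 3.

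ZNF837 (gene ID 102151411; chromosome 1, 99564441 to 99577700) measured 11.3, 10.3 and 9.18 CPM in gas and 7.01, 7.07 and 7.13 CPM in dCAMP. All gas libraries lay above the narrow band of the dCAMP libraries. Its log2 fold change was -0.54 (SE 0.12), its adjusted p 0.221 with edgeR's quasi-likelihood test and 0.0299 with DESeq2 over all counted genes. ZNF385A, a cofactor of p53, measured 85.7, 78.6 and 63.1 CPM in gas and 56.8, 52.3 and 58.2 CPM in dCAMP, with a log2 fold change of -0.44 (SE 0.13). ZNF444, a SCAN-domain factor, measured 10.6, 11.0 and 8.01 CPM in gas and 6.71, 7.35 and 7.02 CPM in dCAMP.

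**Figure D3:**
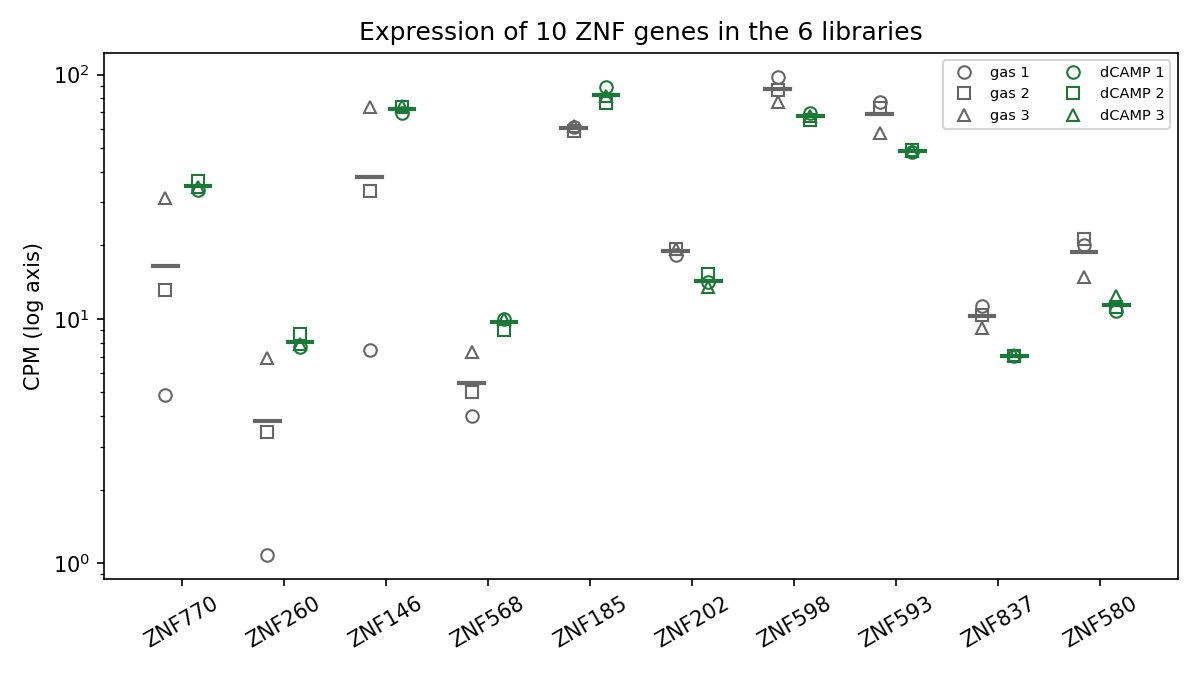
CPM on a log axis for 10 ZNF genes in the 6 libraries, with gas in grey and dCAMP in green, a symbol for each library number and a bar at the group mean. From ZNF770 to ZNF568 the gas symbols spread widely with gas 1 lowest, ZNF185 has 3 gas libraries at 58.9 to 61.8 CPM under dCAMP at 76.4 to 88.9 CPM, and from ZNF202 to ZNF580 all gas libraries lie above dCAMP.

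Some differences were shared by all 3 gas libraries. With every gas library at least 0.25 log2 units below the dCAMP mean there were 9 ZNF genes (4.17%, beside 5.42% of the genes of like expression), namely ZNF132, ZNF185, ZNF268, ZNF300, ZNF391, ZNF568, ZNF582, ZNF606 and ZNF667. With every gas library at least 0.25 above it there were 8 (3.7%, beside 4.18%), namely ZNF48, ZNF142, ZNF202, ZNF296, ZNF580, ZNF581, ZNF787 and ZNF837. Those of these names that the naming rule does not cover were picked after their values were seen.

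ZNF185, an actin-associated protein with a LIM domain that is known from differentiating keratinocytes, had the smallest unadjusted p of the ZNF genes. It lies at chromosome X, 120770099 to 120846855 (gene ID 492228). Its CPM was 61.1, 58.9 and 61.8 in gas and 88.9, 76.4 and 82.0 in dCAMP, so the groups were well apart and the gas libraries close together. The means were 60.6 ± 1.5 CPM in gas and 82.4 ± 6.27 CPM in dCAMP (SD, n = 3 each), and the log2 fold change was 0.44 (SE 0.093) with an unadjusted p of 0.00262 in the edgeR fit. The adjusted p was 0.221 with edgeR's quasi-likelihood test, 0.0119 with DESeq2 over all counted genes and 0.0311 with DESeq2 restricted to genes counted in every library. Without gas 1 the log2 fold change was 0.43, and without gas 3 it was 0.41.

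ZNF568, a KRAB repressor named after its values were seen, measured 4.02, 5.01 and 7.33 CPM in gas and 9.99, 9.03 and 9.98 CPM in dCAMP. Its log2 fold change was 0.82 (SE 0.23) with an adjusted p of 0.221 in edgeR's quasi-likelihood test, and without gas 1 the log2 fold change was 0.63. Its locus overlaps that of ZNF829, so reads may have been split between the 2 genes. ZNF391, chosen in the same way, measured only 1.28, 1.71 and 1.62 CPM in gas and 2.42, 2.15 and 2.37 CPM in dCAMP.

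Among 20 ZNF genes with a known role in transcription or chromatin, the median log2 fold change was 0.042. None was higher and 3 were lower in dCAMP at an unadjusted p under 0.05, beside 6.81 and 13.9% of all genes tested. The adjusted threshold of edgeR's quasi-likelihood test was passed by 0 of them. DESeq2 over all counted genes called ZNF202, with an adjusted p of 0.0317. When restricted to genes counted in every library, DESeq2 did not call it, with 0.0595. ZNF202, a repressor of genes of lipid metabolism, measured 18.2, 19.3 and 19.3 CPM in gas and 14.2, 15.2 and 13.5 CPM in dCAMP, with a log2 fold change of -0.41 (SE 0.10). The groups were separate and the gas libraries lay close together. ZNF692 measured 25.4, 22.5 and 20.2 CPM in gas and 18.0, 16.3 and 17.3 CPM in dCAMP (log2 fold change -0.40, SE 0.12). ZNF384 measured 77.6, 70.3 and 62.2 CPM in gas and 55.1, 54.0 and 57.8 CPM in dCAMP (log2 fold change -0.33, SE 0.11). Both had every gas library above dCAMP.

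The remaining regulators of this list did not pass either threshold. ZNF24 measured 25.6, 44.9 and 81.0 CPM in gas and 84.4, 83.9 and 87.6 CPM in dCAMP, with gas 3 next to dCAMP (log2 fold change 0.76, SE 0.39). ZNF148, which binds GC-rich promoters, measured 23.1, 27.8 and 44.6 CPM in gas and 42.5, 48.3 and 44.5 CPM in dCAMP, and the groups overlapped at gas 3 (log2 fold change 0.50, SE 0.25). ZNF143, an activator that binds many promoters, measured 8.94, 11.9 and 14.4 CPM in gas and 16.6, 14.9 and 15.2 CPM in dCAMP (log2 fold change 0.41, SE 0.18). ZNF281 and ZNF131 had log2 fold changes of 0.51 (SE 0.26) and 0.35 (SE 0.20), and ZNF217, a protein found with corepressor complexes, 0.26 (SE 0.14). Without gas 1 the log2 fold change was 0.42 for ZNF24, 0.30 for ZNF148, 0.23 for ZNF143, 0.27 for ZNF281 and 0.15 for ZNF131.

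Several regulators were close to level. ZNF410, an activator of the CHD4 gene, measured 35.2, 40.0 and 41.8 CPM in gas and 43.4, 41.5 and 41.5 CPM in dCAMP (log2 fold change 0.11, SE 0.10). ZNF274, which recruits the methyltransferase SETDB1 to the ends of other ZNF genes, measured 12.0, 12.0 and 11.3 CPM in gas and 12.3, 10.2 and 11.6 CPM in dCAMP (log2 fold change -0.050, SE 0.12). ZNF341, an activator of the STAT3 gene, had a log2 fold change of 0.010, ZNF703 of 0.075, ZNF516 of 0.089 and ZNF462 of -0.080, all within 1 SE of 0, and the sign of each of these 4 turned under some other setting. ZNF592 and ZNF687, which sit together in a complex with ZMYND8, had -0.22 (SE 0.13) and -0.29 (SE 0.13), ZNF263 -0.25 (SE 0.12) and ZNF335, a component of a histone H3 methyltransferase complex, -0.29 (SE 0.13). Without gas 1, ZNF592 had -0.13 and ZNF335 -0.18.

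Of 11 ZNF genes with a role in RNA, ribosomes, mitosis or protein tagging, the median log2 fold change was 0.054. At an unadjusted p under 0.05, 0 of them were higher and 3 lower, beside 6.81 and 13.9% of all genes tested. This count was not tested. The number past the adjusted threshold was 0 in edgeR's quasi-likelihood test and in DESeq2 over all counted genes. The 3 lower genes act on ribosomes. ZNF593 (chromosome 2, 73819728 to 73820705), a factor of large-subunit assembly and the most highly expressed ZNF gene at a mean of 79.7 FPKM, measured 77.1, 72.9 and 57.6 CPM in gas and 48.4, 49.2 and 48.9 CPM in dCAMP (log2 fold change -0.50, SE 0.13). ZNF598, the ubiquitin ligase that marks collided ribosomes, measured 97.8, 86.4 and 77.0 CPM in gas and 69.8, 65.2 and 67.7 CPM in dCAMP (log2 fold change -0.37, SE 0.11). ZNF622, also a factor of large-subunit maturation, measured 37.1, 42.4 and 35.4 CPM in gas and 30.6, 33.3 and 29.0 CPM in dCAMP (log2 fold change -0.31, SE 0.12). In each of the 3 every gas library lay above every dCAMP library, and the adjusted p was 0.221, 0.221 and 0.23 with edgeR's quasi-likelihood test.

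The other genes of that list had lower values in gas 1 or no difference beyond their error. ZNF326, which couples transcript elongation to splicing, measured 36.9, 49.3 and 67.3 CPM in gas and 70.9, 69.6 and 71.8 CPM in dCAMP (log2 fold change 0.47, SE 0.21). ZNF638, an RNA-binding protein, measured 16.3, 42.0 and 55.4 CPM in gas and 57.5, 56.9 and 60.9 CPM in dCAMP (log2 fold change 0.62, SE 0.41). ZNF451, a SUMO ligase, measured 14.5, 32.2 and 53.9 CPM in gas and 54.3, 57.7 and 52.0 CPM in dCAMP (log2 fold change 0.70, SE 0.43). In the first pair gas 3 was just below dCAMP, and in ZNF451 it lay within the dCAMP range. Without gas 1 the log2 fold change was 0.27 for ZNF326, 0.25 for ZNF638 and 0.33 for ZNF451. ZNF106 had a log2 fold change of 0.31 (SE 0.19; 0.13 without gas 1), and ZNF330, ZNF346 and ZNF830 had 0.054, -0.013 and -0.056, each within 1 SE of 0, with the sign of ZNF330 and ZNF346 turning under other settings.

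Expression per length, in FPKM, ranged over the ZNF genes from 0.199 (ZNF132) to 79.7 (ZNF593). After ZNF593 came ZNF706 with a mean of 41.3 FPKM, ZNF664 with 27.3, ZNF385A with 24.6, ZNF326 with 21.4 and ZNF598 with 20.3. ZNF706 measured 56.2, 96.4 and 144.0 CPM in gas and 147.7, 154.2 and 149.7 CPM in dCAMP, and ZNF664 measured 77.7, 116.3 and 146.3 CPM in gas and 156.0, 149.9 and 154.5 CPM in dCAMP. In both the groups did not overlap and gas 3 was next to dCAMP, and neither had an unadjusted p under 0.05 (log2 fold changes 0.61, SE 0.32, and 0.44, SE 0.22). Without gas 1 the log2 fold changes were 0.31 for ZNF706 and 0.21 for ZNF664. Without gas 3 they were 0.94 and 0.62, with adjusted p of 0.0316 and 0.0429 in edgeR's quasi-likelihood test.

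When the ZNF genes were split into 3 equal parts by mean expression, the median log2 fold change was 0.24 for the lowest 72 genes, -0.060 for the middle 72 and -0.099 for the highest 72. The median log2 ratio of gas 1 to dCAMP was -0.56, 0.15 and 0.24 in the same order, against 0.015, -0.035 and -0.005 for other protein-coding genes with at least 50 counts in every library, cut at the same expression limits. Gas 1 was the lowest gas library for 56.9% of the lowest 72 ZNF genes, beside 36.4% of the other genes there. These other genes had median log2 fold changes of 0.055, 0.045 and 0. In the highest part 21 ZNF genes (29.2%) were lower in dCAMP at an unadjusted p under 0.05, beside 18.6% of the other genes there. Differences between ZNF genes and others in these parts were not tested, and the split was chosen after the values were seen.

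The values also varied with transcript length, in ZNF genes and in others, and the difference between them was not tested. The ZNF genes had a median transcript length of 3516 bases, against 2691 bases in the genes of like expression. The shortest part (72 genes of 652 to 2871 bases) had a median log2 fold change of -0.17, the middle part (2871 to 4532 bases) of 0.099 and the longest part (4532 to 10462 bases) of 0.18, and genes of like expression in the same length ranges had -0.073, 0.13 and 0.24. Gas 1 was the lowest gas library for 38.9, 50 and 55.6% of the ZNF genes in these parts, beside 39.1, 51.8 and 57.8% of the others. Across genes, which are not independent replicates and share the same libraries, Spearman's rho between length and the gas 1 log2 ratio was -0.27 over the 216 ZNF genes and -0.28 over the 7064 others. After removal of the length trend from each library, 9 ZNF genes were higher and 47 lower at an unadjusted p under 0.05, beside 5.89 and 15.2% of all genes tested, and 0 passed the adjusted threshold.

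**Figure D4:**
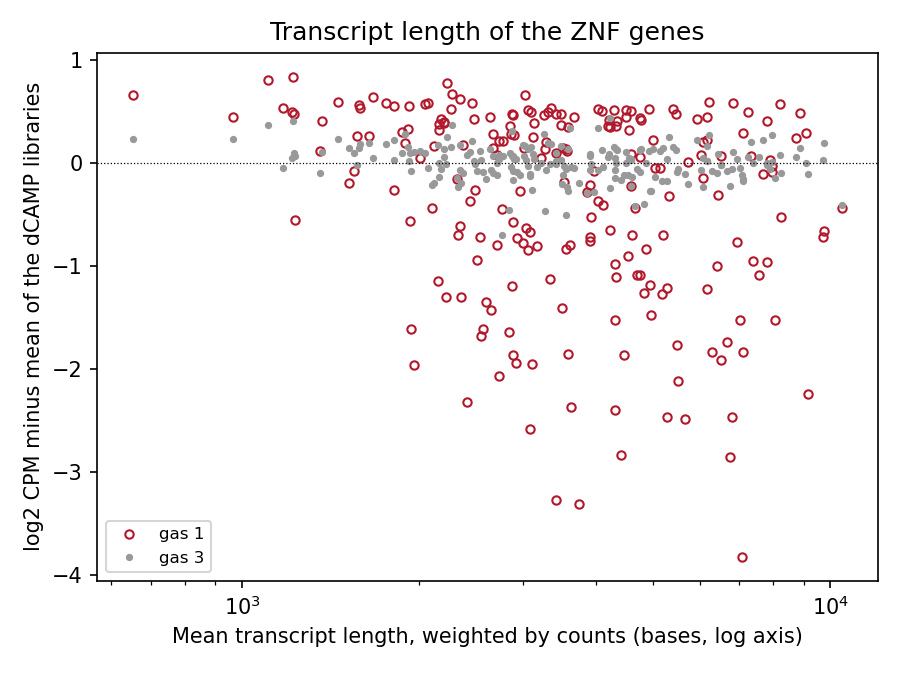
Each ZNF gene appears at its mean transcript length in bases (log axis) with the log2 CPM of gas 1 (red rings) and gas 3 (grey dots) minus the mean of the dCAMP libraries. Gas 3 stays near 0 at all lengths, while gas 1 reaches down to -3.82 and is highest among the shortest genes; the median of gas 1 is 0.24, -0.20 and -0.31 in the short, middle and long parts.

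Position on the chromosome was described next, since ZNF genes lie in runs. Chromosome 1 held 57 of the 216 genes, chromosome 6 held 26 and chromosome 16 held 14. With a neighbouring ZNF gene within 100 kb there were 94 genes, with a median log2 fold change of -0.010, and the 122 others had 0.039. Within single runs the genes could lie far to one side, as in the runs described below, while other runs held both signs. The log2 fold changes ran from -0.54 to 0.44 from ZNF446 to ZNF329 on chromosome 1. They ran from -0.39 to 0.31 from ZNF597 to ZNF205 on chromosome 6, and from -0.32 to 0.17 from ZNF7 to ZNF252 on chromosome 13. From ZNF229 to ZNF45 on chromosome 1 all were positive, from 0.085 to 0.52. These runs were looked at after the values were seen and received no test.

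In the run at chromosome 1, 116128638 to 116527543, the 5 genes ZNF260, ZNF529, ZNF567, ZNF146 and ZNF565 all had gas 1 as the lowest gas library. Their log2 ratios of gas 1 to dCAMP ran from -3.27 to -1.68, and their log2 fold changes from 0.50 to 1.07. ZNF529, for example, measured 1.49, 4.56 and 8.01 CPM in gas and 7.90, 7.07 and 7.88 CPM in dCAMP, so that gas 3 exceeded all dCAMP libraries. None of the 5 had an unadjusted p under 0.05, and without gas 1 the log2 fold changes lay between 0.14 (ZNF567) and 0.63 (ZNF260).

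Elsewhere on chromosome 1, at 102098020 to 102232094, the 7 genes ZNF581, ZNF580, ZNF784, ZNF865, ZNF524, ZNF579 and ZNF628 all had negative log2 fold changes, from -0.71 to -0.17 with a median of -0.37. For 5 of the 7 every dCAMP library lay below every gas library, and 4 had an unadjusted p under 0.05. Over all genes tested, 20.9% lay below in this way and 13.9% were lower in dCAMP at such a p. ZNF579 measured 6.81, 6.40 and 4.69 CPM in gas and 4.06, 3.97 and 3.81 CPM in dCAMP, and ZNF581 measured 3.37, 2.41 and 2.49 CPM in gas and 1.66, 2.22 and 1.77 CPM in dCAMP. ZNF580 and ZNF581 lie 0.1 kb apart. The genes of this run were short, with a median transcript length of 2006 bases, against 3420 bases in the run around ZNF146.

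On chromosome 16, at 14144496 to 14711773, the 11 genes from ZNF786 to ZNF775 had negative log2 fold changes from -0.38 to -0.010, with a median of -0.24, at a median transcript length of 4291 bases. For 5 of them dCAMP lay below all gas libraries, beside 20.9% of all genes tested. At an unadjusted p under 0.05, 2 were lower (ZNF777 and ZNF783), beside 13.9% of all genes tested. At chromosome 6, 17565330 to 17719061, the 5 genes ZNF785, ZNF688, ZNF768, ZNF771 and ZNF48 had log2 fold changes from -0.40 to -0.15, and gas 3 was the lowest gas library in all 5. ZNF48 measured 27.9, 26.2 and 24.9 CPM in gas and 20.9, 18.7 and 20.5 CPM in dCAMP, with an adjusted p of 0.221 in edgeR's quasi-likelihood test and 0.0372 in DESeq2 over all counted genes, but 0.0678 in DESeq2 restricted to genes counted in every library. The part of transcript length in the differences between runs was not tested.

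**Figure D5:**
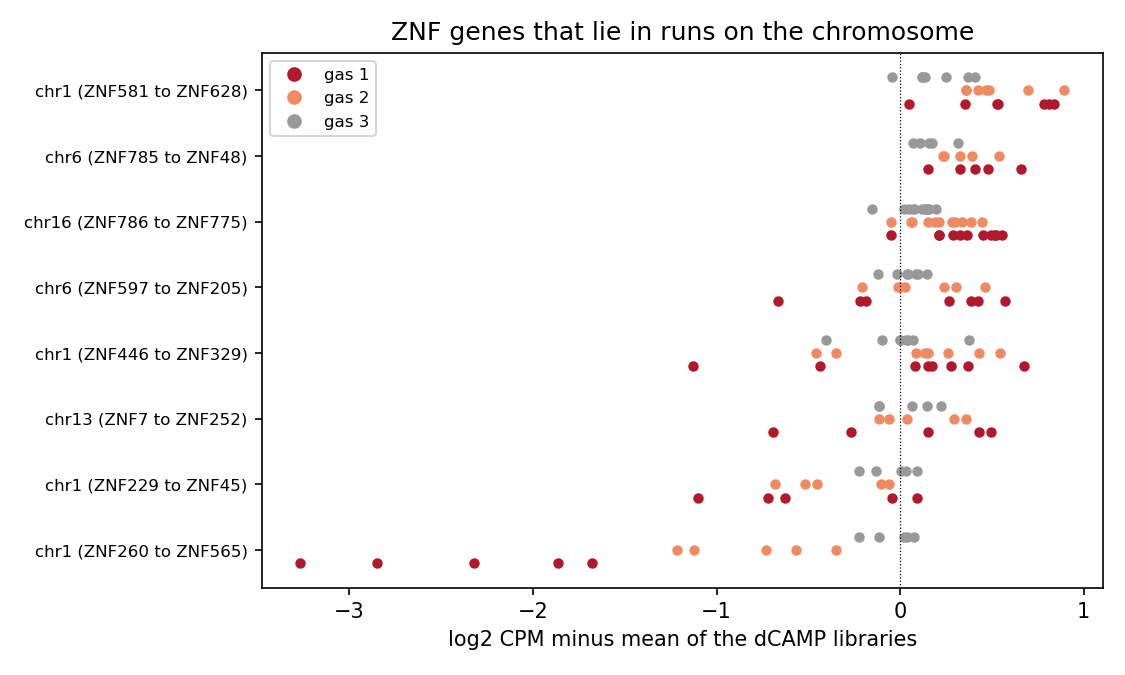
Log2 CPM minus the mean of the dCAMP libraries for each ZNF gene in 8 runs on the chromosome, 1 point per gene and gas library. The runs are sorted by their median log2 ratio of gas 1 to dCAMP. The run from ZNF581 to ZNF628 lies to the right of 0 in gas 1 and gas 2, the run from ZNF260 to ZNF565 has gas 1 between -3.27 and -1.68, and gas 3 (grey) stays within 0.5 of 0 throughout.

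The chromatin proteins that KRAB zinc finger proteins work with were set beside them. Of 26 such genes in the table, 1 was higher in dCAMP and 7 were lower at an unadjusted p under 0.05 (beside 6.81 and 13.9% of all genes tested), 0 passed the adjusted threshold of edgeR's quasi-likelihood test, and the median log2 fold change was -0.054. For 11 of the 26 every dCAMP library lay below every gas library and for 6 above, beside 20.9 and 19% of all genes tested. The 4 with the largest log2 fold changes were ATRX (log2 fold change 1.18, SE 0.74), SMARCAD1 (1.14, SE 0.72), SUV39H2 (0.86, SE 0.51) and CBX3 (0.84, SE 0.64), in each of which gas 1 was lowest. Without gas 1 these values were 0.67, 0.63, 0.44 and 0.36. ATRX, a chromatin remodeller, measured 5.19, 27.0 and 58.6 CPM in gas and 69.5, 64.9 and 71.0 CPM in dCAMP. TRIM28, the corepressor that KRAB domains bind, is named after its values were seen. It measured 560.8, 525.1 and 459.7 CPM in gas and 365.9, 375.1 and 345.4 CPM in dCAMP, so that all gas libraries lay above dCAMP, with a log2 fold change of -0.51 (SE 0.096) and an adjusted p of 0.221 in edgeR's quasi-likelihood test.

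Further properties of the count table bear on single genes. Of the 216 loci, 62 overlap another gene of the table. Besides ZNF568, they include ZNF593, ZNF444, ZNF296, ZNF384 and ZNF48, which were described above as lower in dCAMP. How reads on overlapping genes or on near-identical zinc finger sequences were assigned is not given in the sources used here. The 216 genes had 1041 transcripts in the deposited transcript table. Of the 166 genes with more than 1 transcript, 79 had the same leading transcript in all 6 libraries. In 110 the dCAMP libraries agreed on the leading transcript, and gas 1 had another one in 16 of these, gas 2 in 17 and gas 3 in 10. As the RNA was bulk RNA, fewer cells of a kind and less RNA per cell cannot be told apart in any of these values.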

How the data were processed

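RNA-Seq libraries of CPEK cells (3 gas, 3 dCAMP) were made with a TruSeq Stranded mRNA kit. The authors checked and trimmed the reads with FastQC 0.11.7 and Trimmomatic 0.38, removed PCR duplicates, mapped them to CanFam3.1 with HISAT2 2.1.0 and summarized known transcripts with StringTie 2.1.3b. The annotation release and the strand setting of the counting are not given in the sources used here. Read counts were deposited as unnormalized whole numbers for genes and for transcripts. FPKM values were deposited beside them, scaled by the authors to the length of the transcript and to the mapped reads. Other length values are those of the deposited transcript table, weighted by count, and coordinates are those of the same table. The deposited TPM columns were not used here, and no column of the authors' own comparisons was used.

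Counts were analysed in R 4.3.3 with edgeR 4.0.16 (TMM, filterByExpr, quasi-likelihood test, Benjamini-Hochberg adjustment over 14708 genes, prior count 2), limma 3.58.1 and DESeq2 1.42.0. Log2 ratios used the same prior count. Genes of like expression had a mean log2 CPM within the 5th to 95th percentile of the ZNF genes. The steps were tested on simulated data with the same spread in both groups. That simulation does not cover the wider spread of the gas libraries, so it says nothing on calls under it. Named were the 8 largest positive and 8 largest negative log2 fold changes, the 6 highest mean FPKM values and 3 lists of known roles, 47 genes in all, and of the chromatin partners the 4 with the largest change. The ZNF genes, the lists and the rule for names were chosen with earlier results of these data known. Of the 216 gene IDs, 201 were in the reference gene table (UU_Cfam_GSD_1.0). Alternatives were other tests, scalings, filters, count minimums, a length correction, the replicate number as a block, and each library left out in turn. A description of protein features, promoter motifs and GC content was not made, as no sequence was used here. Depth was 43084921 to 54082634 counts per library; a count of 0 allows up to 3 counts, for counting error only.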

Additional observations from a re-analysis of the deposited data

How the results depend on the processing

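Calls depended on gas 3 and on the sample weighting; the cause was not tested. The count of ZNF genes past an adjusted p of 0.05 was 0 with edgeR and 5 with DESeq2 on all genes with a count. It was 3 with DESeq2 restricted to genes counted in every library and 146 with voom and sample quality weights. In the same order, these fits called 0, 1.48, 1.05 and 60.8% of all genes. Voom gave 82 higher, 69 lower and 10 with a 2-fold change at an unadjusted p under 0.05. Of all genes, it gave 34.5% higher and 30.4% lower. With each library left out in turn, the count past an adjusted p of 0.05 was 0 to 85 (85 without gas 3, which leaves fewer samples, and 0 otherwise). The fit without gas 3 called 33.1% of all genes. At an unadjusted p under 0.05, 3 to 67 were higher and 10 to 64 lower, beside 2.16 to 23.8% and 4.7 to 25.5% of all genes. There were 0 to 26 with a 2-fold change and 44 to 82 with dCAMP above gas. Each end with the larger count was without gas 3. Shares of all genes were not counted for the 2-fold changes of any fit but the main edgeR fit. Nor were they counted for dCAMP above gas with a library left out. With fewer libraries the groups separate more easily for any gene, so the rise to 82 is no result on the ZNF genes. The counts of higher and lower genes were 4 and 15 without dCAMP 1, 4 and 13 without dCAMP 2, and 3 and 10 without dCAMP 3, in fits on fewer samples. The shares of all genes were 2.48 and 5.75%, 3.04 and 6.57%, and 2.16 and 4.7% in the same order. Limma on log2(FPKM + 1) gave 21 higher and 22 lower (beside 11.9 and 11.8% of all genes) and 1 with a 2-fold change. On log2(FPKM + 0.1) it gave 22 lower (beside 11.8% of all genes) and 2 with a 2-fold change.

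Samples with the same replicate number deviated together weakly if at all (correlations over all genes 0.13, 0.024 and 0.048). Gas 1 with dCAMP 1 had the highest value of all pairs, and gas 2 also correlated best with its own number. Gas 3 correlated best with dCAMP 2 (0.087). Over the ZNF genes the same-number values were 0.198, -0.095 and 0.085. The numbers were not taken as pairs, and pairing is not excluded. With the replicate number as a block, 16 ZNF genes were higher, 22 lower (beside 9.56 and 9.31% of all genes) and 1 had a 2-fold change at an unadjusted p under 0.05, and 0 passed an adjusted p. With the block and the length correction, 20 were higher (beside 10.6% of all genes) and 4 had a 2-fold change. The medians were then -0.108 for the ZNF genes and -0.027 for the genes of like expression.

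The median log2 fold change of the ZNF genes was -0.083 with upper-quartile factors, -0.109 with the length correction, 0.087 with a minimum of 20 counts, -0.056 with a minimum of 100 counts (7 higher), 0.08 with a mean count of 50 and 0.093 with the ZNF genes kept by filterByExpr (1 with a 2-fold change in each of these last 2 and with the minimum of 20). Leaving out libraries gave -0.036 to 0.008. The median of the genes of like expression was 0.067 when also of like length, 0.003 over all protein-coding genes with 50 counts, -0.052 with upper-quartile factors, -0.034 with the length correction and -0.017 to 0.027 with libraries left out. The median gas 1 ratio was 0.154 with upper-quartile factors, 0.225 without the length trend, -0.167 with a mean count of 50, 0.094 with a minimum of 100 and -0.017 to 0.034 with libraries left out. For gas 2 these values were 0.072, 0.113, -0.053, 0.058 and -0.008 to 0.03.

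Of the 47 named genes, 6 changed sign somewhere, each with a log2 fold change near 0. ZNF341 gave -0.005 with DESeq2 in both forms, -0.081 with upper-quartile factors, -0.014 with 10 counts in every library, -0.124 with voom, -0.219 with the length correction, -0.2 with that and the block, and -0.122 to 0.06 with libraries left out. ZNF330 gave -0.027 with upper-quartile factors, -0.056 with voom and -0.059 to 0.104 with libraries left out. ZNF703 gave -0.023, -0.013, -0.046 and -0.02 with upper-quartile factors, voom, the length correction and that with the block, and -0.134 to 0.166 with libraries left out. ZNF516 gave -0.181 with the length correction, -0.169 with the block added and -0.02 to 0.105 with libraries left out. ZNF346 gave -0.167 to 0.023 with libraries left out, and ZNF462 gave 0.083 with voom.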

Other observations

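Zinc finger families outside the ZNF symbols were counted in the same fit. Of 40 ZBTB genes, which join zinc fingers to a BTB domain, 37 had enough counts to be described, with a median log2 fold change of -0.020. Of these, 2 were higher and 7 lower in dCAMP at an unadjusted p under 0.05 in the edgeR fit. Over all genes tested, 6.81% were higher and 13.9% lower at that threshold. Of 15 ZSCAN genes 9 were described, with a median of -0.081, and 1 was higher and 0 were lower. The 4 ZKSCAN genes had a median of 0.21 and 0 below that threshold. Of 16 ZFP genes 10 were described, with a median of 0.34 and 1 lower. In 6 of these 10 gas 1 was the lowest gas library, beside 43.7% of all genes tested. No gene of the 4 families passed an adjusted p of 0.05 in edgeR's quasi-likelihood test.

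Among the 14 ZNF genes under 50 counts in gas 1 alone, the log2 ratio of gas 1 to dCAMP ran from -3.81 to -0.95. ZNF782, for example, had 39, 220 and 322 counts in gas 1, 2 and 3 and 347, 287 and 352 counts in the dCAMP libraries.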
